A study of Mus musculus with 10 samples.

Results

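The pre-B cell receptor (pre-BCR) components were described as a set of 6 genes, Igll1, Vpreb1, Vpreb2, Vpreb3, Cd79a and Cd79b, listed by name for their place in this receptor, with earlier results of these data known. They are 6 of the 25579 genes for which expression values were deposited. All 6 were among the 13436 genes that had a level of at least 1 TPM in at least 1 library and entered the tests. TPM, a normalised transcript abundance, is the number of reads on a gene divided by its length and scaled so that each library sums to the same total. The Pax5 peaks in and near the 6 genes were described with them, 25 of the 41983 peaks in the list from cells with normal Pax5 and 21 of the 18821 peaks in the list from Pax5 R31Q/- cells.

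RNA had been sequenced from mouse bone marrow cells of strain C57BL/6 in 8 libraries, 2 for each of 4 genotypes. Pax5+/+ cells carry both normal alleles and Pax5+/- cells 1 normal and 1 null allele. Pax5 R31Q/- cells carry 1 allele that encodes an amino acid change in the DNA-binding paired domain and 1 null allele. Pax5-/- cells came from Pax5 fl/fl mice with the Vav-Cre transgene, a transgene that is known to be active in blood-forming cells at large and so ahead of the B cell stage. The labels call the Pax5-/- cells progenitors and the other 3 genotypes pro-B cells, so genotype and cell label cannot be told apart in that group. The study defined pro-B cells by surface markers, and the gate used for the Pax5-/- cells is not given in the sources used here. Binding had been mapped by chromatin immunoprecipitation (ChIP-seq) with an antibody against the Pax5 paired domain in pro-B cells cultured briefly on OP9 stromal cells with interleukin-7, with 1 library per genotype. The control for ChIP-seq is labelled Rag2-/-, a genotype without V(D)J recombination, and the mutant library is labelled Pax5 R31Q/- in its genotype field but Rag2(R31Q/-) in its description. Replicate numbers were assigned here in the order of the sample list and only name a library. The labels do not say that 2 libraries of a genotype came from separate animals, so p-values measure the spread between these libraries, which may be technical.

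The pre-BCR is the checkpoint receptor of early B cell development. A pro-B cell that has made an immunoglobulin heavy chain pairs it with the surrogate light chain, in which the Igll1 protein takes the place of the constant domain and a VpreB protein, from Vpreb1 or Vpreb2, that of the variable domain. The complex signals through the immunoreceptor tyrosine-based activation motifs of Cd79a (Ig-alpha) and Cd79b (Ig-beta), which later serve the mature B cell receptor as well. Vpreb3 encodes a related protein that stays inside the cell and binds newly made heavy chains. Ebf1 and the E proteins are known activators of Igll1, Vpreb1 and Cd79a, and Pax5 is a known regulator of Cd79a.

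Igll1 and Vpreb1 are neighbours on the minus strand of chromosome 16 (GRCm38.p6), at chr16:16860671-16863985 and chr16:16868401-16869255. Vpreb2 lies farther along the same chromosome on the plus strand, at chr16:17979445-17981274, and Vpreb3 on chromosome 10, at chr10:75943024-75949657 (plus strand). Cd79a is at chr7:24897497-24901858 (plus strand) and Cd79b at chr11:106311341-106314562 (minus strand). The sequences that bear on the peaks described below were taken from the GRCm38.p6 assembly and RefSeq annotation. The promoters of Igll1, Vpreb1 and Cd79a are shown because each lies within a Pax5 peak of both lists. The same holds for Vpreb2, of which only a short stretch is given further on, since transcripts are predicted to start upstream of its curated start. Each line gives 250 bases that end just before the annotated start. The capitals mark the E-box CAGGTG bound by E proteins and the Ebf1 core CCCNNGGG, searched on both strands.
Igll1 promoter, chr16:16863986-16864235, minus strand: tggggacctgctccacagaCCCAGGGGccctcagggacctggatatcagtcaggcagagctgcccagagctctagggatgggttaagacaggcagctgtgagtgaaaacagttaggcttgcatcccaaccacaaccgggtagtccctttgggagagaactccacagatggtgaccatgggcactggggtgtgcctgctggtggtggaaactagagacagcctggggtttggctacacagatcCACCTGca
Vpreb1 promoter, chr16:16869256-16869505, minus strand: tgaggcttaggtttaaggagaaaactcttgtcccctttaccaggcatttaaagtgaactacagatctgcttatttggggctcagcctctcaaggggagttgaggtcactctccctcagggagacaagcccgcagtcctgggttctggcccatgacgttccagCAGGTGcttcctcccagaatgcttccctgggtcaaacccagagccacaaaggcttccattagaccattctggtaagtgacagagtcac
Cd79a promoter, chr7:24897247-24897496, plus strand: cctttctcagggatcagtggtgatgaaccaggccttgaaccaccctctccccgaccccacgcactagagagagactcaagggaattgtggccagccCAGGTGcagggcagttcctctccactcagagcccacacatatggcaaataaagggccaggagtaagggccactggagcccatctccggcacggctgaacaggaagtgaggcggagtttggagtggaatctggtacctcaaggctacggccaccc

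Of the 5 members with an entry in the promoter table, 4 held CAGGTG in these 250 bases and 1 held CCCNNGGG, against 17.2% and 11.8% of all 32851 promoters. A match describes the letters and not a bound site. Vpreb1 and Vpreb2 are near copies of each other. Their coding sequences are both 429 bases long and 9 positions differ, which leaves 97.9% identical. The likeness reaches into the sequence upstream, and the stretch around the shared E-box, shown here because it carries the same motif in both genes, differs at 1 of 30 positions.
Vpreb1 upstream, chr16:16869331-16869360, minus strand: ggcccatgacgttccagCAGGTGcttcctc
Vpreb2 upstream, chr16:17980316-17980345, plus strand: ggcccatgactttccagCAGGTGcttcctc

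The near copies bear on the levels, because the study counted uniquely mapping reads of 50 bases. All 50-base stretches of the counted exons of Igll1, Vpreb3 and Cd79b occur once in the genome. For Vpreb1 this holds for 65.2% of the stretches and for Vpreb2 for 51.5%, and the others occur in the respective partner. For Cd79a it holds for 56.3%, and 331 of its 757 stretches also occur at chr12:52079010-52079625 within Gm32220. The levels of these 3 genes relative to other genes are therefore uncertain, and Vpreb2 had been counted over its 429 coding bases only. Vpreb3 overlaps the gene Gm16221, and how strands were counted is not given in the sources used here.

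The 8 libraries held between 21661291 and 34562092 reads on genes, as recovered from the steps between the TPM values, and the lowest depth was that of Pax5-/- replicate 1. The 6 members were among the most abundant transcripts, ranked from 5 to 278 within a library. Between 2684 and 59528 reads stood behind each member value, so the counting error was between 0.410% and 1.93%, and the precision was set by the number of libraries. Pax5 itself stood at 418 and 444 TPM in the Pax5+/+ libraries, 272 and 287 TPM with +/-, 306 and 293 TPM with R31Q/- and 1242 and 1409 TPM in Pax5-/- cells. A value per gene does not show which exons the reads covered, so it does not check the deletion.

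**Figure D1:**
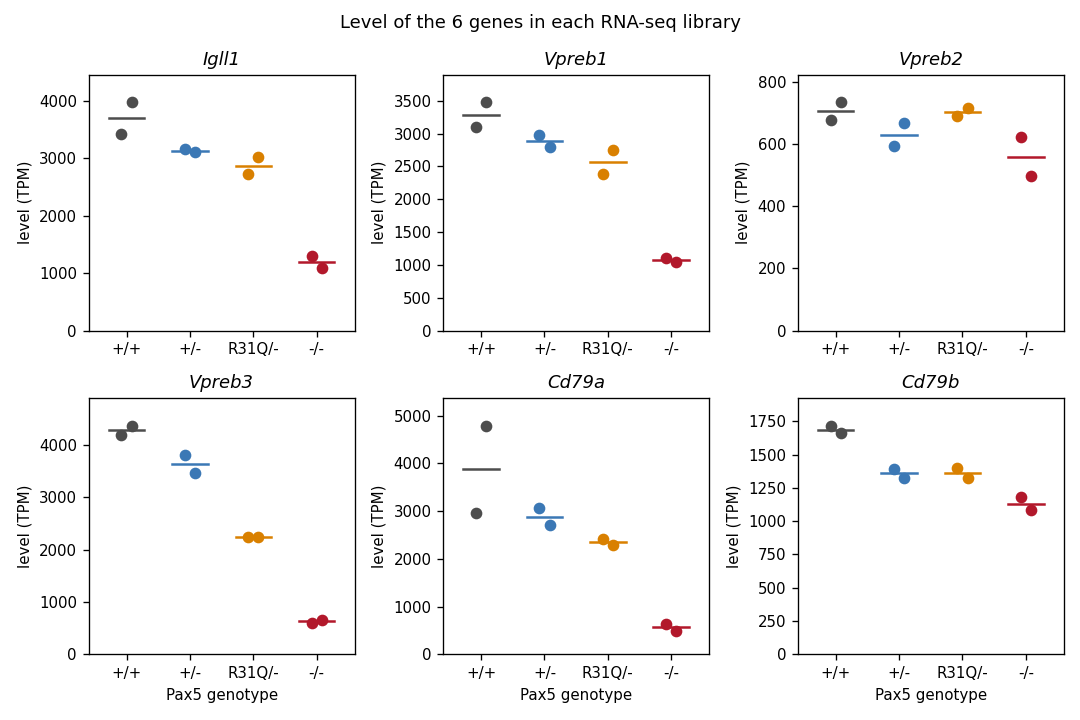
Level in TPM of each gene (linear axes from 0) in the 2 libraries of each Pax5 genotype, with points for libraries and a line for their mean. Igll1, Vpreb1, Vpreb3 and Cd79a are lowest in both Pax5-/- libraries by a wide gap, whereas Vpreb2 and Cd79b keep 79.3% and 67.1% of the Pax5+/+ mean.

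The surrogate light chain genes Igll1 and Vpreb1 had nearly the same profile across genotypes. Igll1 was at 3417 and 3970 TPM in the Pax5+/+ libraries, 3150 and 3107 TPM in Pax5+/-, 2722 and 3017 TPM in Pax5 R31Q/- and 1298 and 1080 TPM in Pax5-/-. Vpreb1 was at 3097 and 3479 TPM in Pax5+/+, 2975 and 2793 TPM in Pax5+/-, 2386 and 2746 TPM in Pax5 R31Q/- and 1107 and 1042 TPM in Pax5-/-. For both genes the order of the means was Pax5+/+, Pax5+/-, Pax5 R31Q/-, Pax5-/-, and the libraries of neighbouring genotypes did not overlap. In the model described below the steps between the first 3 genotypes did not pass the test, and the step down from Pax5 R31Q/- to Pax5-/- did. The ratio of Vpreb1 to Igll1 within a library was between 0.852 and 0.965 in all 8 libraries.

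Vpreb2, which encodes the second VpreB protein, varied least between genotypes. It stood at 677 and 736 TPM in the Pax5+/+ libraries, 595 and 668 TPM in Pax5+/-, 691 and 717 TPM in Pax5 R31Q/- and 624 and 496 TPM in Pax5-/-. The Pax5+/+ and Pax5 R31Q/- libraries overlapped, and so did the Pax5+/- and Pax5-/- libraries. The ratio of Vpreb2 to Vpreb1 was 0.219 and 0.211 in the Pax5+/+ libraries and 0.20 and 0.239 in Pax5+/-. It was 0.289 and 0.261 in Pax5 R31Q/- and 0.564 and 0.476 in Pax5-/-. The 2 near-identical genes thus held different shares of the VpreB transcripts in the Pax5-/- libraries than in the others, with no overlap between these libraries and the rest.

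Among the 6 genes Vpreb3 had the widest gap between Pax5 R31Q/- and Pax5+/-. It stood at 4186 and 4361 TPM in Pax5+/+, 3811 and 3462 TPM in Pax5+/-, 2234 and 2240 TPM in Pax5 R31Q/- and 595 and 662 TPM in Pax5-/-. No library of 1 genotype overlapped those of another. The mean was 85.1% of that of Pax5+/+ cells in Pax5+/-, 52.3% in Pax5 R31Q/- and 14.7% in Pax5-/-. The ratio of Vpreb3 to Igll1 was between 1.10 and 1.23 in the Pax5+/+ and Pax5+/- libraries, 0.821 and 0.742 in Pax5 R31Q/- and 0.459 and 0.613 in Pax5-/-.

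The signalling chains Cd79a and Cd79b, whose proteins form a heterodimer, differed in their profiles. Cd79a stood at 2965 and 4786 TPM in Pax5+/+, 3055 and 2710 TPM in Pax5+/-, 2405 and 2290 TPM in Pax5 R31Q/- and 634 and 488 TPM in Pax5-/-. Cd79b stood at 1716 and 1660 TPM in Pax5+/+, 1393 and 1325 TPM in Pax5+/-, 1399 and 1324 TPM in Pax5 R31Q/- and 1181 and 1083 TPM in Pax5-/-. The Pax5+/+ libraries were farther apart for Cd79a than for any other member, and replicate 1 overlapped the Pax5+/- libraries. The ratio of Cd79a to Cd79b was between 1.72 and 2.88 in all libraries of the other 3 genotypes but 0.537 and 0.451 in Pax5-/- cells. The level of this ratio is uncertain because a large share of the Cd79a stretches is not unique, so it is read here between genotypes and not as an order of the 2 chains.

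**Figure D2:**
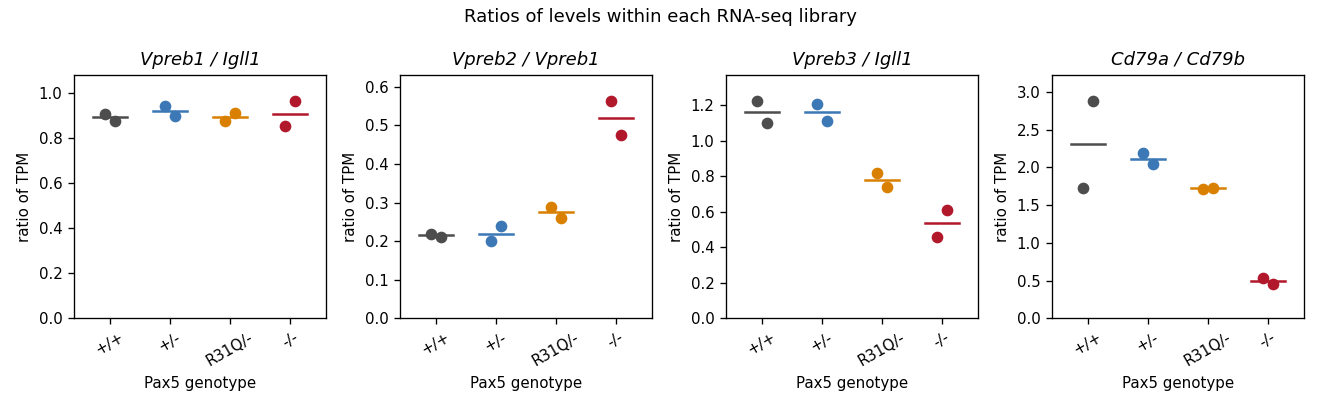
Ratio of the TPM of a pair of genes within each library (linear axes from 0), by Pax5 genotype, with points for libraries and a line for their mean. The ratio of Vpreb1 to Igll1 stays between 0.852 and 0.965, while Vpreb2 to Vpreb1 is highest and Cd79a to Cd79b lowest in the Pax5-/- libraries.

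The comparison of Pax5-/- with Pax5+/+ cells asks which of these genes depend on the presence of Pax5. Of the 6 members, 5 were lower in Pax5-/- cells at an adjusted p-value under 0.05 (limma on log2 of TPM + 1, Benjamini-Hochberg adjustment over all genes tested), against 19.7% of all genes tested that were lower and 16.2% that were higher. The median difference of the 6 genes was -1.62 on the log2 scale and that of all genes -0.11. Vpreb3 had a log2 difference of -2.77 (SE 0.12, limma, adjusted p = 9.00e-06) and Cd79a one of -2.76 (SE 0.23, limma, adjusted p = 0.000126), the largest of the 6. Igll1 fell by 1.64 (SE 0.15, limma, adjusted p = 0.000161) and Vpreb1 by 1.61 (SE 0.13, limma, adjusted p = 0.000112). Cd79b fell by 0.58 (SE 0.11, limma, adjusted p = 0.00605), and its call was lost when only these 2 genotypes were fitted (adjusted p = 0.0649, with a range over the alternatives of 0.00246 to 0.0649). Vpreb2 differed by -0.34 (SE 0.14, 95% interval -0.67 to -0.02, limma, adjusted p = 0.0920) and did not pass the test. Without Pax5-/- replicate 1, which had the lowest depth, Vpreb2 fell by 0.51 (limma, adjusted p = 0.0259, range over the alternatives 0.0259 to 0.317) and all 6 members were called.

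By the rule of the study's methods, with a difference of more than 3-fold and a mean above 5 TPM in a genotype added, 4 members were lower in Pax5-/- cells, namely Igll1, Vpreb1, Vpreb3 and Cd79a. The same rule held for 3.82% of all genes tested. Markers of other cells also moved in this comparison. Of 4 plasmacytoid dendritic cell markers, Siglech, Bst2 and Ccr9 rose, and the summed level of the list was 442 and 761 TPM in the Pax5-/- libraries against 200.5 to 227 TPM in Pax5+/+. The 7 myeloid markers summed to 2065 TPM in Pax5-/- replicate 1 and 316 TPM in replicate 2, against 397 to 615 TPM in Pax5+/+, and 1 of the 7, Csf1r, passed the test. Of 4 T cell markers tested, 2, Tcf7 and Gata3, were higher, while the defining T cell genes Cd3e, Cd3d and Cd3g were at or under 0.585 TPM in the Pax5-/- libraries. Of 3 NK cell markers tested, Klrb1c and Prf1 were lower and Gzma was higher. The erythroid genes Hba-a2 and Hbb-bs were listed at 0 in all libraries. The part of these other cells in the lower level of the members was not tested, and in bulk RNA fewer cells of a type and less RNA per cell cannot be told apart.

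The comparison of Pax5 R31Q/- with Pax5+/+ cells asks which of these genes change with 1 mutant and 1 null allele together. It does not separate the paired domain mutation from the loss of 1 allele. Vpreb3 was lower, at a mean of 2237 TPM against 4274 TPM, a log2 difference of -0.93 (SE 0.12, limma, adjusted p = 0.00723). It was the 1 member called, where 2.55% of all genes tested were lower and 1.62% higher. With either Pax5 R31Q/- library left out, the difference stayed at -0.93 and -0.94, but the call was lost (limma, adjusted p = 0.0914 and 0.101, range over the alternatives 0.00154 to 0.101). By the 3-fold rule no member was called, against 0.558% of all genes tested that were lower.

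The other 5 members did not pass the test in Pax5 R31Q/- cells. Cd79a differed by -0.68 on the log2 scale (SE 0.23, limma, adjusted p = 0.175), and without Pax5+/+ replicate 1, the lower of the Pax5+/+ values, the difference was -1.03 (limma, adjusted p = 0.0463, range over the alternatives 0.0463 to 0.607). Without Pax5+/+ replicate 2, the higher value, it was -0.34 (limma, adjusted p = 0.607), so the size of this difference rests on which Pax5+/+ library is used. Igll1 and Vpreb1 both differed by -0.36 (SE 0.15 and 0.13, limma, adjusted p = 0.242 and 0.204). Cd79b differed by -0.31 (SE 0.11, limma, adjusted p = 0.193). In each of these 4 genes both Pax5 R31Q/- libraries lay below both Pax5+/+ libraries. The share of all genes tested with such a gap was not computed, so no conclusion is drawn from it. Vpreb2 had means of 704 and 706 TPM, and the 95% interval of its log2 difference ran from -0.33 to 0.32, or from 0.797-fold to 1.25-fold. The sign of this difference changed with the library left out, and the interval does not show that the levels are alike beyond these bounds. The 7 myeloid markers summed to 945 and 993 TPM in Pax5 R31Q/- against 397 to 615 TPM in Pax5+/+, most of it from S100a8 and S100a9. Of the 7, 0 passed the test by limma or limma-voom (limma, adjusted p from 0.212 to 0.951) and 1 had an unadjusted p under 0.05. Of 3 NK cell markers tested 1, Prf1, was lower (log2 difference -1.32). The part of these cells in the values of the members was not tested.

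**Figure D3:**
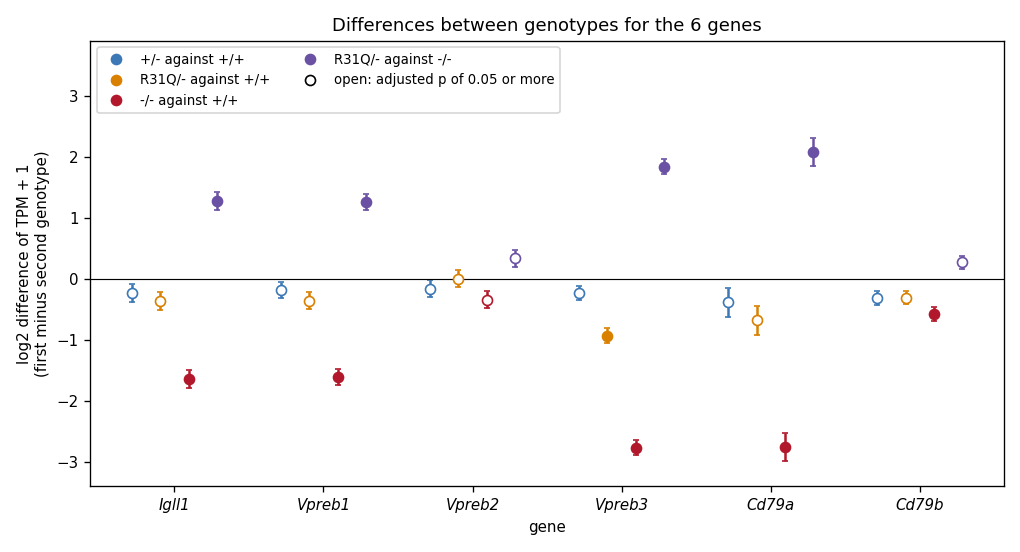
Log2 difference of TPM + 1 between genotypes for each gene, with the standard error from limma as bars, filled where the adjusted p-value is under 0.05. Vpreb3 is the 1 filled point for R31Q/- against +/+, and 5 of 6 points are filled for -/- against +/+.

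Loss of 1 normal allele was compared in Pax5+/- against Pax5+/+ cells. No member was called by limma or by limma-voom on the recovered reads, against 0.0223% of all genes tested that were lower. All 6 log2 differences were below 0, between -0.16 for Vpreb2 and -0.39 for Cd79a, and 1 member, Cd79b, had an unadjusted p under 0.05 (-0.31, SE 0.11, limma, adjusted p = 0.665). The median of the 6 was -0.23 against 0.02 for all genes tested. Of the 6, Cd79a alone had overlapping libraries, and the share of all genes tested without overlap was not computed. The Cd79a difference was -0.73 without Pax5+/+ replicate 1 and -0.043 without replicate 2. These comparisons share the Pax5+/+ libraries, so a high or low value in those libraries moves all 3 in the same direction.

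Pax5 R31Q/- and Pax5+/- cells both have 1 null allele and differ in whether the other allele is mutant. No member passed the test in limma here, where 0.35% of all genes tested were lower, and 1 had an unadjusted p under 0.05. That gene was Vpreb3, with a log2 difference of -0.70 (SE 0.12, limma, adjusted p = 0.0663, range over the alternatives 0.0149 to 0.599), and it was called when only these 2 genotypes were fitted and by limma-voom on the recovered reads. Igll1, Vpreb1 and Cd79a differed by -0.13, -0.17 and -0.29, Vpreb2 by 0.16 and Cd79b by 0.00, all with adjusted p of 0.828 or more in limma. For Cd79b the libraries overlapped and the sign changed with the scaling. The 95% interval for Igll1 ran from -0.47 to 0.22 on the log2 scale and that for Vpreb1 from -0.48 to 0.14, so differences of that size in either direction were not resolved.

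Against the Pax5-/- cells, Pax5 R31Q/- cells had higher levels of 4 members at an adjusted p under 0.05, where 19.9% of all genes tested were higher. Cd79a was higher by 2.07 on the log2 scale (SE 0.23, limma, adjusted p = 0.000642), from a mean of 561 TPM to 2348 TPM. Vpreb3 was higher by 1.83 (SE 0.12, limma, adjusted p = 7.26e-05), and these 2 genes also passed the 3-fold rule, which 3.07% of all genes tested did. Igll1 was higher by 1.27 and Vpreb1 by 1.25 (SE 0.15 and 0.13, limma, adjusted p = 0.000711 and 0.000494). Vpreb2 and Cd79b, at 0.34 and 0.27 (SE 0.14 and 0.11, limma, adjusted p = 0.0941 and 0.0990), did not pass. Vpreb2 was called without Pax5-/- replicate 1 (log2 difference 0.50, limma, adjusted p = 0.0312, range over the alternatives 0.0312 to 0.390) and Cd79b after quantile normalization (0.35, limma, adjusted p = 0.0433, range 0.0433 to 0.504). Pax5 R31Q/- libraries had a Cd79a level of 60.6% of the Pax5+/+ mean, and Pax5-/- libraries 14.5%. The 6 genes together made up 1.61% and 1.90% of all TPM in the Pax5+/+ libraries, 1.498% and 1.41% in Pax5+/-, 1.18% and 1.23% in Pax5 R31Q/- and 0.544% and 0.485% in Pax5-/-.

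The genes most alike to each member were taken as those with the smallest distance between profiles over the 8 libraries, on log2(TPM + 1) centred on each gene's mean. Igll1 and Vpreb1 were each other's closest gene of all those tested, at a distance of 0.156. Ptprm, a receptor tyrosine phosphatase, came second for both, at 1.96 TPM in Pax5+/+ and 0.0361 TPM in Pax5-/- cells, followed by Foxn3 for Igll1 and Ucp2 for Vpreb1. At so low a level the added 1 TPM understates the fall of Ptprm, so its likeness holds on this scale only. The 3 genes nearest to Vpreb3 were Tnk2, Prkd2 and Prep, and those nearest to Cd79a were Robo4, Trim16 and Bcl6b. Among members, Vpreb3 ranked 16th in closeness to Cd79a, whereas Cd79b, the partner of Cd79a, ranked 2898th. Vpreb2 was nearest to Wdr83os, Pcdhgb5 and Mrm2, and Cd79b to Anapc16, Bsdc1 and Maf1.

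The signal from the pre-BCR passes through Src family and Syk kinases to the adaptor Blnk, to Btk and Plcg2, and to phosphoinositide 3-kinase. Of 20 genes of this pathway 19 were tested, and Ighm, which encodes the heavy chain, was not analysed here. In Pax5 R31Q/- against Pax5+/+ cells 5 were lower, among them Lyn, Pik3ap1 and Cd22, and 2 were higher (Plcg2 and Pik3r1), with a median log2 difference of -0.14 against 0.04 for all genes tested. Pik3ap1, an adaptor that links the receptor to phosphoinositide 3-kinase, was the 1 pathway gene past 3-fold, at 143 and 115 TPM against 471 and 497 TPM (limma, log2 difference -1.91, adjusted p = 0.00110). In Pax5-/- against Pax5+/+ cells 8 of the 19 were lower and 5 higher, with a median of -0.22 against -0.11 for all genes tested.

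Among 20 transcription factors that act on these genes or at this stage, 13 were lower and 4 higher in Pax5-/- than in Pax5+/+ cells, with a median log2 difference of -0.95 against -0.11 for all genes tested, of which 19.7% were lower and 16.2% higher. Lef1, a known activator at the pro-B stage, stood at 7.41 and 18.2 TPM against 537 and 669 TPM (limma, log2 difference -5.56, adjusted p = 3.99e-05), and Ikzf3 at 1.338 and 1.90 TPM against 56.0 and 43.6 TPM (limma, -4.28, adjusted p = 1.81e-05). Ebf1 and Tcf3, the known activators of Igll1 and Vpreb1, were among the 13 lower genes, with log2 differences of -1.63 and -2.25. Id2, an inhibitor of E proteins, rose by 2.14 and Pax5 by 1.62. In Pax5 R31Q/- cells 3 factors were lower than in Pax5+/+ (Pax5, Spib and Bach2), with a median of -0.27 against 0.04 for all genes tested. Ebf1 and Tcf3 differed there by -0.26 and -0.61 and did not pass (limma, adjusted p = 0.285 and 0.0884).

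The stage of the cells was read from markers in the same libraries. The 10 pro-B markers had a summed level of 7939 and 7967 TPM in Pax5 R31Q/- cells against 7029 and 7192 TPM in Pax5+/+ cells. Of 4 pre-B markers tested, Cd72 and Ms4a1 were lower, and Ms4a1 stood at 1.18 and 4.83 TPM against 14.0 and 25.8 TPM (limma, log2 difference -2.49, adjusted p = 0.0261). The other pre-B markers, Cd2 and Il2ra, did not pass and differed in direction (limma, log2 differences -1.10 and 1.58, adjusted p = 0.0755 and 0.0964). Il2ra had a mean of 31.5 TPM in Pax5 R31Q/- against 9.78 TPM in Pax5+/+ cells. In Pax5-/- cells 6 pro-B markers were lower and 1, Dntt, was higher, and of the 4 pre-B markers 3 were lower, Cd2, Cd72 and Ms4a1 (log2 differences -1.37, -2.93 and -4.05), and 1, Il2ra, was higher by 1.87 on the log2 scale. The part of such differences in stage in the values of the 6 members was not tested.

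Pax5 peaks were described by their positions, since the peak lists hold no heights. A peak was counted as near a gene when it lay within 10 kb of it, and as common when it shared at least 1 base with a peak of the other list. All 6 members had peaks near them in both lists, as had 91.6% of the 9732 genes above 5 TPM in Pax5+/+ cells in the Rag2-/- list and 92.2% in the Pax5 R31Q/- list. Of the 25 peaks of the Rag2-/- list near the members 20 were common, or 80.0%, against 37.5% of all 41983 wherever they lay. Each member had at least 1 common peak, which was the usual state, since 5.34% of the expressed genes with such peaks had none in common. The Pax5 R31Q/- list had 21 peaks near the members, of which 19 were common and 2 had no counterpart. With 1 library per genotype, a peak in 1 list only has no replicate check.

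**Figure D4:**
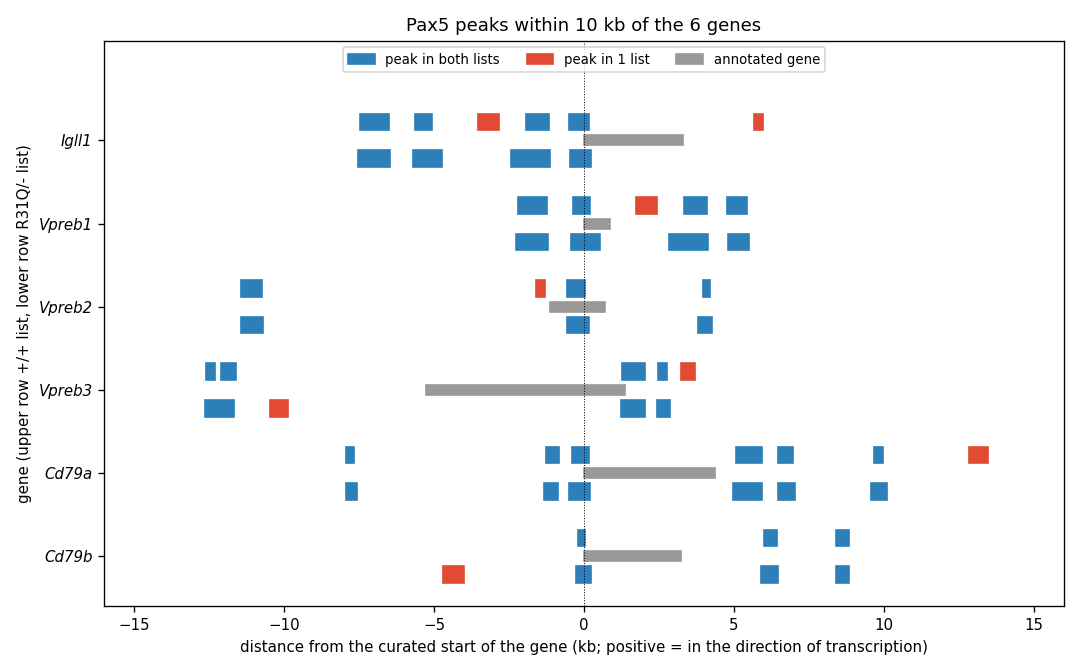
Pax5 peaks within 10 kb of each gene, drawn as distance from its curated start in kb, with the list from Rag2-/- cells (labelled +/+) above and the Pax5 R31Q/- list below each gene. Blue peaks are in both lists, red peaks in 1 list, and grey bars are the annotated genes. All members but Vpreb3 have a blue peak at their start.

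A peak lay within 1 kb of a start site in both lists at Igll1, Vpreb1, Vpreb2, Cd79a and Cd79b, which is 5 of 6 members, and each of these 5 genes had a common peak there, while 3.25% of the expressed genes with a Rag2-/- peak at the start had no common one. Among the expressed genes 79.0% had such a peak in the Rag2-/- list and 84.4% in the Pax5 R31Q/- list. The number of peaks set some members apart from the median of 2 in the Rag2-/- list. Cd79a had 7 peaks within 10 kb, of which 6 were common, and Igll1 had 6, of which 4 were common, whereas 3.72% of expressed genes had 6 or more. Igll1 and Vpreb1 share 5 of their peaks because they lie next to each other, and 4 of the 7 near Cd79a lie in its neighbour Arhgef1. Vpreb1 and Vpreb3 had 5 peaks each, Vpreb2 had 4 and Cd79b 3.

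Vpreb3, the member with the lower level in Pax5 R31Q/- cells, had no peak at its start in either list. Its nearest peak lay downstream, at chr10:75949553-75950349 in the Rag2-/- list and chr10:75949546-75950340 in the Pax5 R31Q/- list, overlapping the end of the gene 1253 bp from the curated start. This peak was 797 bp wide in the first list and 795 bp wide in the second. The middle of the peak is shown because this common peak was the one closest to the gene's start, with the Ikaros core TGGGAA (reverse strand) and the E-box CAGGTG in capitals.
Vpreb3 downstream peak, chr10:75949802-75950101, plus strand: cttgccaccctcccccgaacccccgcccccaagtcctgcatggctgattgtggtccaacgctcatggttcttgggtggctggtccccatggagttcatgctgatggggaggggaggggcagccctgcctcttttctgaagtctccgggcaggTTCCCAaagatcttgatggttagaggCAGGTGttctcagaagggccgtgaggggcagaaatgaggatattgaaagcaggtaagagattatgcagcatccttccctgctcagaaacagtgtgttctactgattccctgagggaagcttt

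Of the Rag2-/- peaks near members, 5 were absent from the Pax5 R31Q/- list. They lay downstream of Igll1 (chr16:16858018-16858326), between Igll1 and Vpreb1 (chr16:16866813-16867526), upstream of Vpreb2 (chr16:17978974-17979279), downstream of Vpreb3 (chr10:75951545-75951995) and in an intron of Arhgef1 beyond Cd79a (chr7:24910325-24910975). None of them lay at a curated start of a member, and the one near Vpreb2 was 166 bp from a predicted start. Cd79b had no such peak. Conversely, the Pax5 R31Q/- list alone had a peak at chr10:75937822-75938422 in Gm867, upstream of Vpreb3, and one at chr11:106318561-106319262 in Scn4a, upstream of Cd79b. The window between Igll1 and Vpreb1 is shown because it was the widest of the 5, and A or G made up 82.3% of its bases, with the Ikaros core in capitals.
Peak in the Rag2-/- list only, chr16:16867020-16867319, plus strand: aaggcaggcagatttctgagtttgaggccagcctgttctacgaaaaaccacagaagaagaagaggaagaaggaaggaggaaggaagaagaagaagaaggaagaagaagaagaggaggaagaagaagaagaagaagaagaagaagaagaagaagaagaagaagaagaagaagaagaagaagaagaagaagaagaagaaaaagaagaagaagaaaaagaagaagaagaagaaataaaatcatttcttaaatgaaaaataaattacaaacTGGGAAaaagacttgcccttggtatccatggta

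In windows of 300 bases at the middle of each of the 25 Rag2-/- peaks, CAGGTG was found in 13, TGGGAA in 8 and CCCNNGGG in 4, and over all 41983 peaks in 13.9%, 12.7% and 10.1%. Most of these 25 peaks are common, and among all common peaks of that list the shares were higher, at 23.4%, 21.2% and 20.9%. The letters GCGTGAC, the downstream part of the Pax5 consensus, were found in 2 windows, against 3.78% of all peaks in that list, 7.29% of its common peaks and 1.68% of its peaks absent from the other list. Both windows belonged to peaks absent from the Pax5 R31Q/- list, those downstream of Vpreb3 and beyond Cd79a. They are shown with GCGTGAC in capitals, the second on the minus strand.
Downstream of Vpreb3, chr10:75951713-75951753, plus strand: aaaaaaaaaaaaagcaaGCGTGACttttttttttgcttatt
Beyond Cd79a, chr7:24910560-24910600, minus strand: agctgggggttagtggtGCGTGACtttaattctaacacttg

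Peaks near the members were wider in the Pax5 R31Q/- list. The common peaks had a median width of 480.5 bp in the Rag2-/- list and 677 bp in the Pax5 R31Q/- list, and 19 of the 20 common Rag2-/- peaks met a wider partner. The exception was the downstream peak of Vpreb3. Over the whole lists the common peaks had median widths of 468 and 599 bp, so the same direction held beyond these genes. In 1 place, upstream of Vpreb3 in Chchd10, 2 Rag2-/- peaks met a single peak of the Pax5 R31Q/- list. Width depends on the depth and enrichment of a library, which were not analysed here.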

How the data were processed

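Groups were taken from the sample labels. The authors aligned RNA-seq reads of 50 bases to GRCm38/mm10 with STAR (2.4.2 in the submitters' processing notes), counted unique reads on RefSeq genes and deposited TPM values. Peak positions were deposited by the authors as called with MACS after alignment with Bowtie2 (2.3.5.1), with no usable height. The members and gene lists were chosen with earlier results of these data known.

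Levels were compared on log2(TPM + 1) with limma 3.58.1 in R 4.3.3 (eBayes with a trend, all 4 genotypes in the fit, Benjamini-Hochberg adjustment). This scale understates the change of low genes. With 2 libraries against 2, an exact two-sided permutation test cannot go below p = 0.333. Whole reads were recovered for 19794 of the 19796 genes above 0, to within 0.005 reads, and limma-voom on them was an alternative.

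Named genes were the members, the 3 genes nearest to each in profile, list genes past 3-fold in Pax5 R31Q/- cells and the 3 list genes that rose most and the 3 that fell most in Pax5-/- cells. Genes named beside a count of 5 or fewer, and Ebf1 and Tcf3, were chosen after their values were seen. Some genes under this rule are not named in the results. Peaks and sequences were handled in Python 3.11.15 with pandas 2.3.3, and plots were drawn with matplotlib 3.10.9. Alternatives are given in the closing section.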

Additional observations from a re-analysis of the deposited data

How the results depend on the processing

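The 30 log2 differences of the members were recomputed under 17 alternatives each, 510 values in all, of which 495 kept their direction and their side of the threshold. The calls that changed are given with the results above. With 1 library left out in turn, the difference of Vpreb2 in Pax5 R31Q/- against Pax5+/+ ran from -0.064 to 0.056 and that of Cd79b in Pax5 R31Q/- against Pax5+/- from -0.037 to 0.041, and the latter was -0.0072 with median-ratio scaling and -0.082 with quantile normalization. With 1 library left out in turn, the number of members called in Pax5 R31Q/- against Pax5+/+ ran from 0 to 2. It was 0 there by the study's 3-fold rule, and 2 by that rule in Pax5 R31Q/- against Pax5-/-. In Pax5 R31Q/- against Pax5+/- it was 1 with only these 2 genotypes in the fit and 1 by limma-voom. Within 2.5 kb of the members there were 16 Rag2-/- peaks, of which 12 were common, and 12 Pax5 R31Q/- peaks. Where a library was left out, the lone library of that genotype was assumed to vary like the others. Over all genes tested, the number called ran over the alternatives from 94 to 893 in Pax5 R31Q/- against Pax5+/+ (560 in the fit reported), from 1 to 30 in Pax5+/- (3), from 2675 to 6424 in Pax5-/- (4829), and from 0 to 403 (83) and 2000 to 6536 (4655) in Pax5 R31Q/- against Pax5+/- and Pax5-/-. The cause of these changes was not tested.

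No paired analysis was possible because the labels give no replicate numbers, and those used here only name libraries in the order of the sample list. The 2 libraries per genotype limit the size of difference that the tests resolve.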
